A study of Homo sapiens with 36 samples.

Results

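IGR37 is a human melanoma cell line of the pigmented, MITF-high kind, and siCTR is a control siRNA, a short duplex RNA brought into cells so that the act of silencing can be told from the loss of a chosen gene. The comparison described here set 3 IGR37 libraries labelled siCTR (20 nM, 48 h) against 3 IGR37 libraries labelled DMSO (the vehicle of a small molecule, 48 h), 6 of the 36 libraries of the study. These 6 were chosen by their labels and no measured value. The study silenced or inhibited SCD, the desaturase that turns saturated into monounsaturated fatty acids, in IGR37 and in a second melanoma line, 501mel. The siCTR and DMSO groups were the controls of its siRNA arm and of its inhibitor arm (labelled SCDi_A93, 1 uM, 48 h). The 501mel libraries used below carried the same siCTR and DMSO treatments, dose and time. Every library was of a single line grown in RPMI-1640 with serum, and neither group carried a genetic change named in the labels. The sequence of siCTR and the transfection reagent are not given in the sources used here. The DMSO cells are not said to have been mock-transfected, so the siRNA, the transfection and the missing DMSO cannot be told apart. Nothing in the labels says that the replicates came from separate cultures, and the p-values then reflect no more than the variation among these libraries.

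A control siRNA is loaded into Argonaute proteins, which the cell also uses for its own microRNAs, and a guide strand can lower transcripts that pair with its first bases in their 3′ untranslated region (UTR). Lipid-carried double-stranded RNA can also be sensed by Toll-like receptors in endosomes and by RIG-I-like receptors in the cytosol, whose output is the interferon response. In pigment cells MITF is the master transcription factor of differentiation, driving melanosome genes such as PMEL and TYRP1, and melanoma lines move between MITF-high and dedifferentiated, invasive states.

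The libraries counted 3′ transcript ends. The 3 siCTR libraries held 4252191, 5825580 and 6685898 reads on genes, and the 3 DMSO libraries 5157153, 5072519 and 4654543. At this depth 3 reads stood for 0.416 to 0.639 CPM (read counts scaled to the library total) in the siCTR libraries and 0.541 to 0.603 CPM in the DMSO libraries, which is the level a gene with no read could still have, by counting error only. Spike-in RNAs took 3.76 to 4.83% of reads over the 6 libraries, and the 10 most abundant genes took 6.86 to 6.90% in siCTR and 6.05 to 6.34% in DMSO libraries. All 8 markers of the melanocyte lineage were listed, with a summed level of 7101 to 7127 CPM in siCTR and 5743 to 5898 CPM in DMSO libraries. By the test described below, 3 of them passed as higher and 1 as lower with siCTR, so the sum does not speak for each marker. The 3 of 10 epithelial markers listed summed to 20.2 to 22.4 CPM in siCTR and 22.5 to 27.9 CPM in DMSO libraries. The 5 of 10 fibroblast markers listed summed to 20.1 to 27.1 CPM in siCTR and 26.4 to 28.4 CPM in DMSO libraries. The 3 of 11 blood and endothelial markers listed summed to 14.6 to 17.7 CPM in siCTR and 11.2 to 17.6 CPM in DMSO libraries. EPCAM, COL1A2 and PTPRC were not listed, and no marker of these 3 types passed the test. Transcripts encoded in mitochondria (15 searched) are not listed, so their share is not used here.

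Levels are given as log2 CPM, and changes as the log2 level in siCTR minus that in DMSO libraries ± its standard error (SE), from limma across all genes with Benjamini-Hochberg adjusted p (n = 3 libraries per group). The threshold for passing was an adjusted p of less than 0.05. Of 13364 genes, 863 were higher with siCTR (6.46%) and 1202 were lower (8.99%), and 179 and 199 of them changed at least 2-fold. In 2010 of the 2065 genes that passed, the 3 siCTR libraries all lay on the same side of the 3 DMSO libraries. Such separation was common: over all 13364 genes, passing or not, they lay all above in 2392 and all below in 2630. The median change of all genes was -0.0057. In such bulk libraries fewer cells of a kind and less RNA per cell cannot be told apart. Without siCTR replicate 3, the most deeply read library, 567 genes were higher.

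Before the genes themselves, a fact about the groups must stand beside every direction below. The same contrast in 501mel, which shares no library with this one, gave 633 higher (4.74%) and 878 lower genes (6.57%). With limma voom on the recovered reads that split turned, to 1053 higher (63.2% of calls, against 41.9%) and 614 lower in 501mel. That fit scaled by library totals alone and left out the scaling factors of the deposited values. In 501mel these factors were 1.01 to 1.05 with siCTR and 0.972 to 0.977 with DMSO. A total of 522 genes passed in both lines, which was 25.3% of the IGR37 calls and 34.5% of the 501mel calls. Of these, 462 (88.5%) had opposite signs, 249 of them higher in IGR37 and lower in 501mel and 213 the reverse, and 60 had the same sign, 15 higher and 45 lower. Among all genes 58.0% did not share a sign, a share that also counts genes with a change of exactly 0 in a single line. Over the 6682 genes above the median level, the changes in the lines ran against each other (Pearson r = -0.383, Spearman rho = -0.325, a description across genes, which are not independent replicates). Whether the lines respond in opposite directions or the siCTR and DMSO labels of 1 line are exchanged was not tested, and these libraries alone cannot tell the 2 apart. Groups are therefore called by their labels throughout, and "with siCTR" means "in libraries labelled siCTR".

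**Figure D1:**
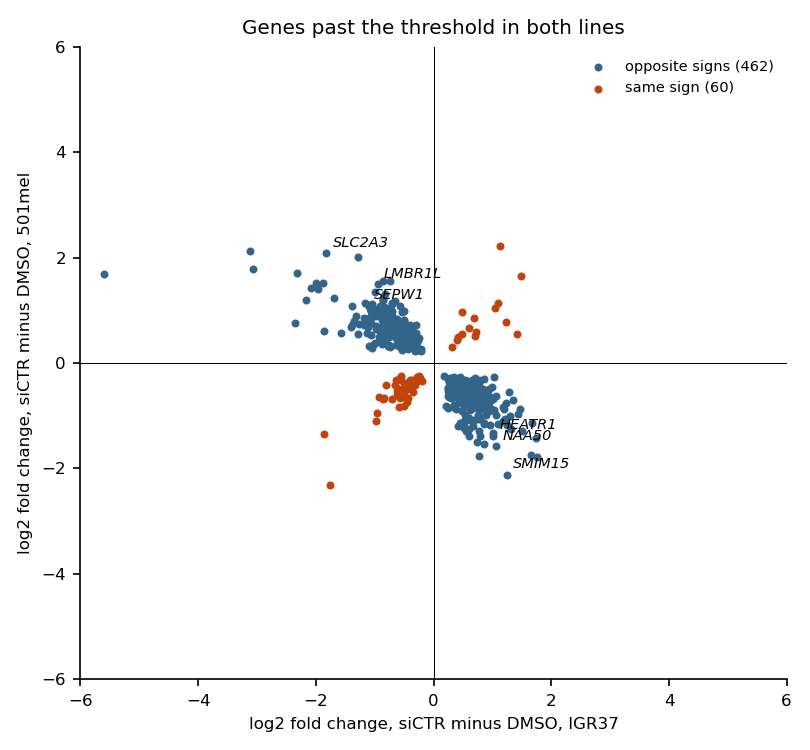
Change with siCTR against DMSO in IGR37 (horizontal axis, log2 fold change) and in 501mel (vertical axis, log2 fold change) for the 522 genes that passed in both lines, 1 point per gene, coloured by whether the signs are opposite or the same. The 462 genes with opposite signs fill the upper left and lower right, with SLC2A3 in the upper and SMIM15 in the lower of these.

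SMIM15, a small predicted membrane protein, had the largest positive difference between the lines among the more abundant genes. Its levels in IGR37 were 5.74, 5.55 and 5.67 log2 CPM with siCTR and 4.33, 4.57 and 4.33 with DMSO, a rise of 1.25 ± 0.16 (adjusted p = 4.2e-06). In 501mel they were 4.05, 4.22 and 4.23 with siCTR and 6.28, 6.08 and 6.49 with DMSO, a fall of 2.12 on the log2 scale (adjusted p = 1.82e-09). The groups did not overlap in either line, and the siCTR libraries were the high ones in IGR37 and the low ones in 501mel. SLC2A3, the glucose transporter GLUT3, did the reverse. In IGR37 it had 5.93, 5.99 and 5.80 log2 CPM with siCTR and 7.64, 7.79 and 7.75 with DMSO (-1.82 ± 0.10, adjusted p = 1.13e-11), and in 501mel 7.71, 7.80 and 7.68 with siCTR and 5.76, 5.70 and 5.48 with DMSO (2.08, adjusted p = 9.79e-13). The IGR37 libraries labelled siCTR_1, normalized in a separate table, read 4.56, 4.74 and 4.54 log2 CPM for SMIM15 and 6.80, 6.80 and 6.71 for SLC2A3. These values can be set beside the others but not tested against them. Whether siCTR_1 is the same siRNA as siCTR is not known here.

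The test of the difference itself, the change in IGR37 minus that in 501mel, called 1204 genes higher (9.01%) and 1308 lower (9.79%). After SMIM15 (3.37), the largest positive differences among the more abundant genes were in NAA50 (2.65), a subunit of the N-terminal acetyltransferase NatE, the receptor gene LRP12 (2.55), the ubiquitin-conjugating enzyme gene UBE2G2 (2.41), the ribosome biogenesis factor gene HEATR1 (2.39) and TECPR2 (2.39), whose protein binds the autophagy machinery. NAA50 stood at 7.89, 7.88 and 7.81 log2 CPM with siCTR and 6.77, 6.89 and 6.72 with DMSO in IGR37, and at 6.25, 6.50 and 6.37 with siCTR and 7.99, 7.78 and 8.09 with DMSO in 501mel. HEATR1 read 6.07, 6.20 and 6.09 with siCTR and 5.09, 5.01 and 5.22 with DMSO in IGR37, and 4.53, 4.63 and 4.89 with siCTR and 6.11, 6.14 and 5.94 with DMSO in 501mel. Both genes thus had 4 groups in which the high and the low label changed places between the lines, with no overlap. Among the same more abundant genes the largest negative differences were in SLC2A3 (-3.91), the chromatin protein gene HMGA2 (-2.46), LMBR1L (-2.44), the adhesion receptor gene CXADR (-2.33), the selenoprotein gene SEPW1 (-2.21) and the stress cytokine gene GDF15 (-2.16). Their adjusted p for the difference ran from 1.16e-15 for SLC2A3 to 1.04e-06 for LMBR1L. DESI2, which encodes a peptidase of the PPPDE family and lies below the level the naming rule asks for, was picked after its values were seen. It read 4.89, 5.15 and 4.67 with siCTR and 3.29, 3.09 and 3.05 with DMSO in IGR37, and 2.64, 3.13 and 2.82 with siCTR and 4.59, 4.56 and 4.77 with DMSO in 501mel.

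The 3′ UTRs of these genes shared letters. For each gene only the longest 3′ UTR among its GENCODE 29 basic transcripts was searched. Whether a gene holds a word refers to that UTR alone, here and below. Among the 6344 genes with a usable 3′ UTR and a level above the median, 15972 7-letter words were held by at least 50. For each gene the change was divided by its SE, and the trend with UTR length was taken out. The words were ranked by a score without log2 units. It was the mean of these values over the holders times the square root of their number, divided by the SD over all genes. TTACAAA, held by 1308 genes (20.6%), ranked lowest in 501mel and highest in IGR37, and the overlapping ATTACAA came next in both. In IGR37 its holders had a mean change of 0.0253, against -0.0648 for the other genes, and made up 36.7% of the higher genes (194 of 528) and 14.8% of the lower ones (136 of 916). In 501mel the mean was -0.127 in holders, against -0.0024 in other genes, and holders made up 15.2% of the higher (61 of 401) and 38.7% of the lower genes (258 of 667). Holders had longer UTRs, with a median of 3132 bases, against 1108 in other genes. The word was picked from these values, so its ranks are a description with no test. TECPR2, SMIM15, NAA50, LRP12, UBE2G2 and HEATR1, the 6 of the more abundant genes with the largest positive difference between lines, all hold it. These genes and the word were picked from the same values, so this follows in part from the choice. Their UTRs were also long, from 1442 bases in LRP12 to 5300 in NAA50. The sites of 4 of them and of SLC7A11 are printed in mRNA sense as 23 bases from hg38 (GENCODE 29), with the word in capitals, because they show what these transcripts share and that the bases around the word differ.
SMIM15, chr5:61159086-61159108, minus strand: ttcgccgaTTACAAAgacaccat
HEATR1, chr1:236550771-236550793, minus strand: tggattacTTACAAAtgttttat
UBE2G2, chr21:44770801-44770823, minus strand: gttatataTTACAAAccatcaca
TECPR2, chr14:102499324-102499346, plus strand: ttgttgtaTTACAAAtctgcata
SLC7A11, chr4:138170184-138170206, minus strand: agtggaacTTACAAAtgagagta

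Of the 2370 human mature miRNAs listed by RefSeq, 0 pair with TTACAAA in full through bases 1 to 7 or 2 to 8. Whether the siCTR guide strand pairs with it was not tested, as that sequence is not given. The mean level of the holders minus that of the other genes, each against the mean of its line, was taken in every library. In IGR37 it was 0.0249, -0.0517 and -0.0292 with siCTR and -0.108, -0.0721 and -0.147 with DMSO, and the libraries labelled DMSO were the 3 lowest of the 12 IGR37 libraries in the table. The other IGR37 groups in the table were positive, with 0.0332, 0.0443 and 0.0331 under the SCD inhibitor and 0.0784, 0.0510 and 0.142 with the second SCD siRNA. In 501mel the gap was -0.099, -0.0942 and -0.112 with siCTR, against 0.0458, -0.0025 and 0.0268 with DMSO. Between siCTR and DMSO in this table, the lower gap thus went with the DMSO label in IGR37 and with the siCTR label in 501mel. In 501mel the SCD inhibitor gave 0.0220, -0.0306 and 0.0198, and the second SCD siRNA 0.0067, 0.0949 and 0.122. In the second table, normalized on its own, the first SCD siRNA gave 0.0334, 0.0179 and 0.0870 in IGR37, against -0.0474, -0.0355 and -0.0554 with siCTR_1. In 501mel it gave 0.0708, 0.0829 and 0.131, against -0.120, -0.0704 and -0.0946 with siCTR_1. The siCTR_1 libraries thus lay below those of the first SCD siRNA in both lines. The reversal was also seen among genes without the word. Among these 5036 genes 241 of 277 genes that passed in both lines had opposite signs (87%), against 132 of 143 among holders (92.3%), and Pearson r without holders was -0.334.

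**Figure D2:**
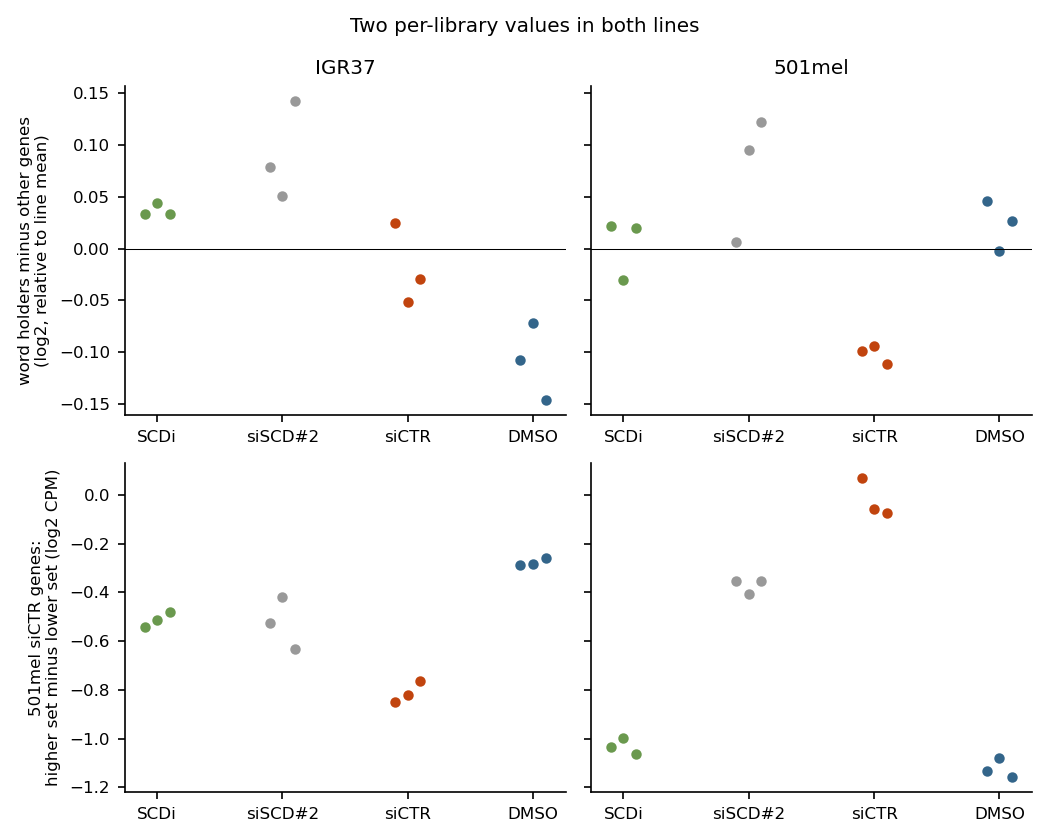
Values per library (1 point each) in IGR37 and 501mel for the SCD inhibitor (SCDi), the second SCD siRNA (siSCD#2), siCTR and DMSO: above, the gap in log2 level between genes that hold TTACAAA and other genes, and below, the difference in mean log2 CPM between genes higher and genes lower with siCTR in 501mel. In IGR37 the libraries labelled DMSO have the lowest gaps (-0.147 to -0.0721) and the highest scores (-0.289 to -0.258), and in 501mel the libraries labelled siCTR have both.

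A score built from 501mel calls alone was high with the siCTR label in 501mel, which chose it, and with the DMSO label in IGR37. The 417 higher and 691 lower genes of 501mel that had a level above the median and were listed in both tables were averaged in each library, and the lower set was subtracted from the higher set. The score was -0.851, -0.820 and -0.763 in IGR37 libraries with siCTR, against -0.289, -0.284 and -0.258 with DMSO, and in 501mel 0.0698, -0.0571 and -0.0739 with siCTR, against -1.134, -1.08 and -1.159 with DMSO. The inhibitor libraries of IGR37 lay between its siCTR and DMSO libraries, at -0.542, -0.513 and -0.481. In 501mel the inhibitor libraries, at -1.035, -0.998 and -1.062, lay next to those labelled DMSO. The separately normalized siCTR_1 libraries gave -0.534, -0.535 and -0.549 in IGR37 and -0.478, -0.560 and -0.552 in 501mel.

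Within IGR37 the largest rise among the more abundant genes was in CFDP1, which encodes a chromatin-associated protein (chromosome 16, 75293698 to 75433485, hg38). It had 5.55, 5.29 and 5.23 log2 CPM with siCTR, against 3.26, 3.49 and 2.74 with DMSO, and rose 4.57-fold (2.19 ± 0.15, adjusted p = 5.05e-10). The groups lay far apart, and in 501mel the gene did not pass (-0.03, adjusted p = 0.953), so that its difference between lines (2.22, adjusted p = 4.81e-08) came with no mirrored change. TECPR2 (1.43 ± 0.17), AZIN2, an antizyme inhibitor of polyamine metabolism (1.41 ± 0.17), the lipid phosphate phosphatase gene PPAP2C (1.35 ± 0.22) and BBC3 (1.29 ± 0.17) followed. BBC3, which encodes the pro-apoptotic protein PUMA, read 5.78, 5.87 and 5.78 with siCTR and 4.58, 4.82 and 4.16 with DMSO (adjusted p = 5.57e-06), with the spread lying mostly among the DMSO libraries. PTK7, a pseudokinase of Wnt signalling (1.28 ± 0.30), FAM69C (1.19 ± 0.24), the centromere gene CENPH (1.16 ± 0.19) and KREMEN2, a Dickkopf receptor (1.13 ± 0.20), also rose. NEURL1B, an E3 ubiquitin ligase gene, rose by 1.35 ± 0.41 (adjusted p = 0.0255), a call that was lost without any of the siCTR libraries or without DMSO replicate 3 (adjusted p of 0.0560 to 0.120). AZIN2 was higher in 501mel too (0.56, adjusted p = 0.0322). CFDP1, AZIN2, BBC3, PTK7, FAM69C, CENPH and KREMEN2 do not hold TTACAAA.

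Among genes above the median level the largest falls were in TMEM45A (-1.84 ± 0.28), SLC2A3, the calcium-regulated transcription factor gene NFATC2 (-1.70 ± 0.19) and GDF15. GDF15 (chromosome 19, 18374731 to 18389176), a cytokine released under mitochondrial and ER stress, read 8.34, 8.41 and 8.45 with siCTR and 9.97, 9.99 and 9.99 with DMSO (-1.58 ± 0.08, adjusted p = 2.44e-12). The groups lay far apart, and the libraries of each lay close together. The cyclin-dependent kinase gene CDK6 read 5.29, 5.10 and 5.09 with siCTR and 6.49, 6.62 and 6.53 with DMSO (-1.38 ± 0.11, adjusted p = 2.46e-09). Its partner cyclin D1, CCND1, read 6.22, 6.42 and 6.52 with siCTR and 7.67, 7.56 and 7.72 with DMSO (-1.26 ± 0.18, adjusted p = 1.51e-05). Both genes were thus lower in all 3 siCTR libraries. HMGA2, an architectural chromatin protein of embryonic and tumour cells that lay below that level in IGR37, read 1.96, 1.85 and 2.45 with siCTR and 4.34, 3.98 and 3.50 with DMSO (-1.85 ± 0.19, adjusted p = 1.5e-07), on 79 reads in all with siCTR and 255 with DMSO. GOLGA7B (-1.28 ± 0.10), PIK3R3, a regulatory subunit of PI3-kinase (-1.19 ± 0.13), and ATAD3B (-1.26 ± 0.29) fell too. ATAD3B has near-identical neighbours, so its reads may be split among them.

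**Figure D3:**
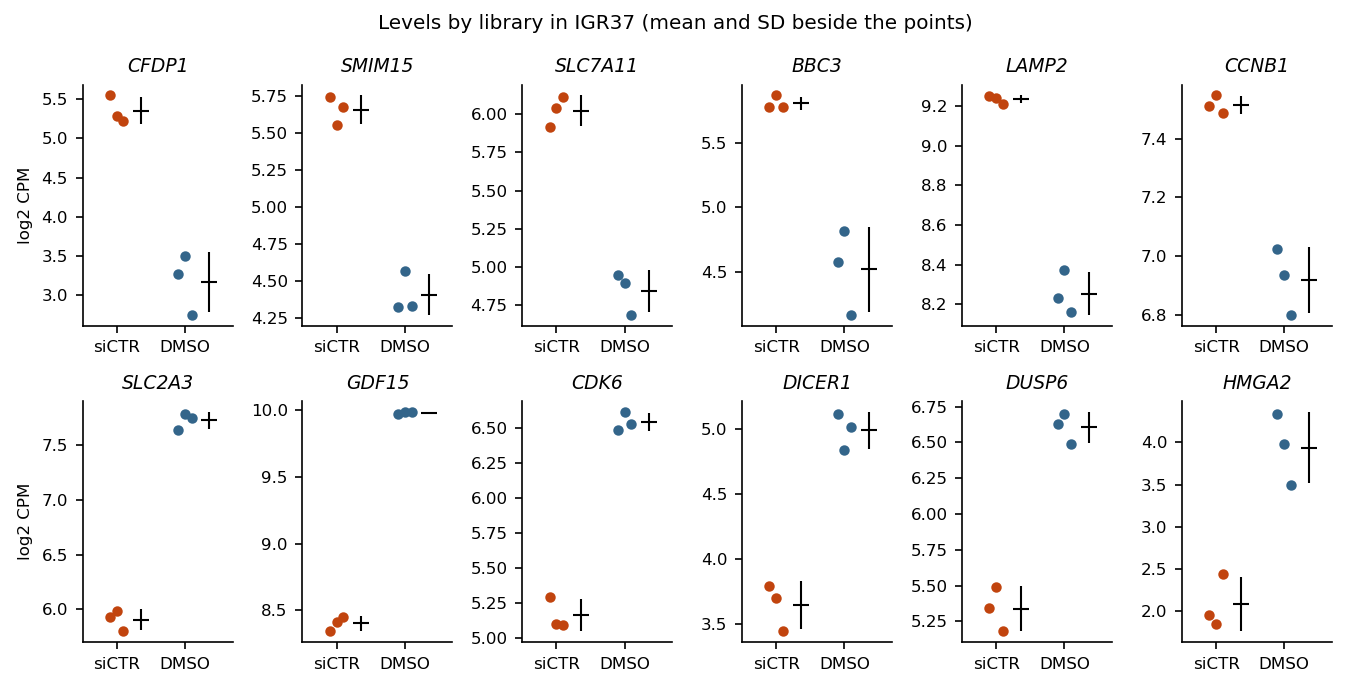
Level in each IGR37 library (vertical axis, log2 CPM, own scale per panel, not starting at 0) for 12 genes, with siCTR left of DMSO and the mean ± SD of 3 libraries beside the points. The 6 genes in the upper panels were higher and the 6 in the lower panels lower with siCTR, and in none do the groups overlap.

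DICER1, the enzyme that cuts microRNA precursors, read 3.80, 3.70 and 3.44 with siCTR and 5.12, 4.84 and 5.02 with DMSO (-1.35 ± 0.17, adjusted p = 3.62e-06). The machinery of RNA interference, which siRNAs use, had 4 lower and 1 higher gene among 13 measured (median -0.13). TNRC6A, the scaffold of Argonaute silencing complexes, fell by 0.53 (adjusted p = 0.00366), and XPO5, the exporter of microRNA precursors, by 0.39 (adjusted p = 0.00312). The calls of AGO4 (0.55), the only higher member, and of TARBP2 (-0.42), a partner of DICER1, were each lost in 4 or 5 of the 6 fits that left out a library. DICER1 moved the other way in 501mel (0.79, adjusted p = 0.00248), as did TNRC6A (0.55, adjusted p = 0.00398).

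TACCTCA, the word that pairs with bases 1 to 7 of 9 mature miRNAs (7 of the let-7 family, miR-98 and miR-4500), was the lowest-ranked of the 15972 words in IGR37. The score behind this rank was -4.585, near the -3.959 of the next word, TCCGAGC, while TTACAAA had 9.143 at the other end. The 776 holders of TACCTCA (12.2% of genes) had a mean change of -0.106, against -0.0378 for other genes. They made up 18.0% of the lower genes (165 of 916) and 11.6% of the higher ones (61 of 528). Their UTRs were longer, with a median of 3272 bases, against 1237 in other genes. In 501mel the word ranked 621 from the top. Gaps in IGR37 were -0.0504, -0.0934 and -0.0766 with siCTR and -0.00099, 0.0105 and -0.0256 with DMSO, without overlap. This word was also picked from the values, so low holders with siCTR follow in part from the choice, and no test was made. Of the 12 largest falls above the median level, TMEM45A, SLC2A3, NFATC2, GDF15, GOLGA7B, ATAD3B and PIK3R3 do not hold it. Mature let-7a, from RefSeq (GRCh38.p14), is printed with its seed, bases 2 to 8, in capitals, while the word pairs with bases 1 to 7, beside the sites of 5 of the 12 largest falls above the median level (hg38, GENCODE 29, mRNA sense, word in capitals).
hsa-let-7a-5p, chr9:94175962-94175983, plus strand: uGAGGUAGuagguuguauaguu
CDK6, chr7:92614272-92614294, minus strand: agggagtgTACCTCAgatagatt
CCND1, chr11:69653488-69653510, plus strand: tttcacaaTACCTCAtgcttcac
DICER1, chr14:95089127-95089149, minus strand: cacttaaaTACCTCAgttcttct
DUSP6, chr12:89347277-89347299, minus strand: cctctcctTACCTCAaatgtaaa
DNAJB9, chr7:108574166-108574188, plus strand: ttgactgaTACCTCAttctgttt

 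No microRNA was measured, and a matching word is a description, not a shown site.

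Each gene group below is a list of genes of known role, described by its count and median beside the background of 6.46% higher and 8.99% lower among all genes and a median near 0.

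**Figure D4:**
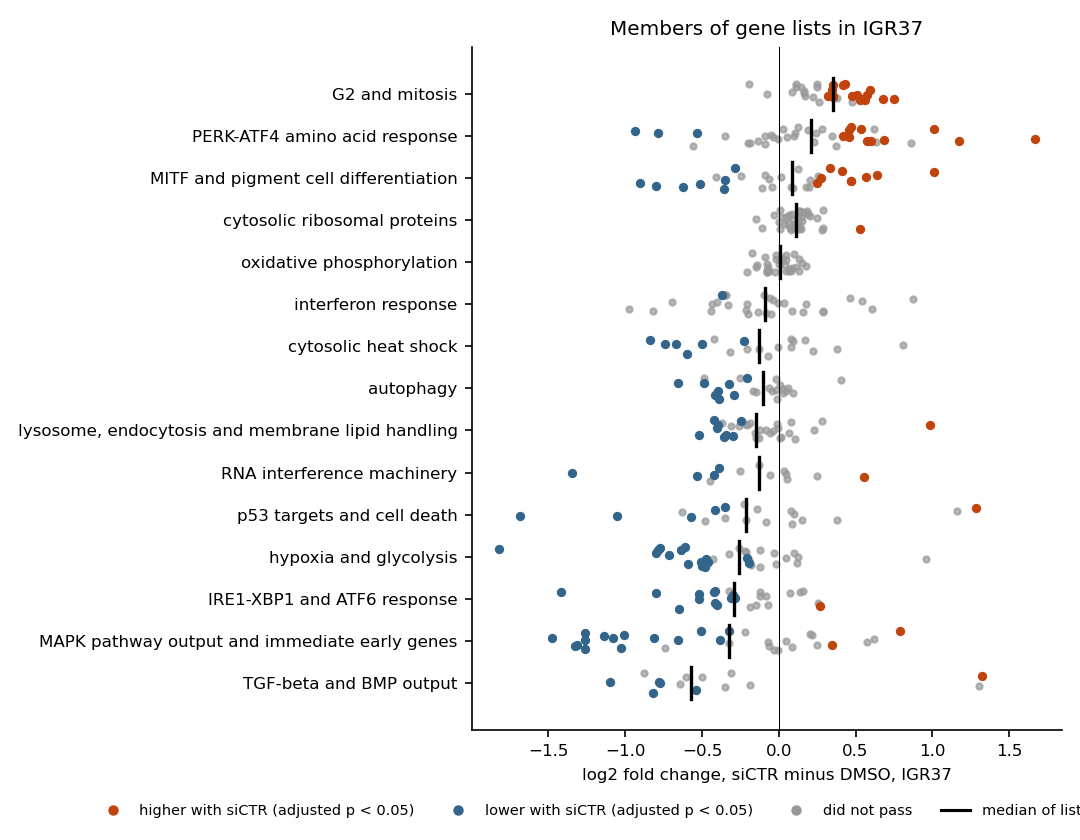
Change with siCTR against DMSO in IGR37 (horizontal axis, log2 fold change) for the measured members of 15 gene lists, 1 point per gene, with the median of each list as a bar. Genes of G2 and mitosis lie mostly to the right, with 16 of 31 higher and 0 lower, and those of MAPK output and of hypoxia and glycolysis mostly to the left, with 15 of 31 lower each.

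Genes of G2 and mitosis were higher with siCTR, 16 of 31 with none lower and a median of 0.35. CCNB1, the cyclin that drives entry into mitosis, read 7.51, 7.55 and 7.49 with siCTR and 7.02, 6.94 and 6.80 with DMSO (0.59 ± 0.09, adjusted p = 4.47e-05). NUSAP1, a spindle protein (0.75 ± 0.10), TOP2A, the mitotic topoisomerase (0.48 ± 0.07), BIRC5, the survivin of the chromosomal passenger complex (0.43, adjusted p = 0.000406), and CDK1 (0.35, adjusted p = 0.00563) rose with it. In 501mel 1 member was higher and 8 were lower, and the difference between lines passed as higher in 18 and lower in 1. Of 33 S phase genes 2 were higher and 3 lower, 24 had a positive change and the median was 0.15. CCNE1, the cyclin of S phase entry, fell (-1.03 ± 0.14, adjusted p = 1.09e-05), as did the origin licensing factor CDC6 (-0.53), while CDT1, its partner, rose (0.52). In the separately normalized siCTR_1 libraries CCNE1 stood at 6.61 ± 0.09 log2 CPM (mean ± SD), a value not tested against the siCTR or DMSO libraries.

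The output of the MAPK pathway, which BRAF or NRAS mutations drive in most melanomas, was lower with siCTR in 15 of 31 genes and higher in 2, with a median of -0.33. DUSP6, the phosphatase that ERK induces and that switches ERK off, read 5.35, 5.49 and 5.18 with siCTR and 6.63, 6.70 and 6.49 with DMSO (-1.26 ± 0.12, adjusted p = 5.48e-08). IER3 read 8.26, 8.37 and 8.45 with siCTR, against 9.50, 9.45 and 9.55 with DMSO (-1.14 ± 0.10, adjusted p = 2.84e-08). All siCTR libraries lay below all DMSO libraries for both. PHLDA1 (-0.81 ± 0.07), the immediate early factor EGR1 (-1.31 ± 0.18) and the feedback inhibitor SPRY2 (-1.01 ± 0.17) fell as well. The 2 higher members were JUND (0.79 ± 0.16) and JUN (0.35), of which JUN lost its call in 8 of the alternatives. In 501mel 4 members were higher and none lower, and the difference between lines passed as lower in 15 and higher in 2.

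Hypoxia and glycolysis genes were lower in 15 of 31, with none higher and a median of -0.26. Beside SLC2A3 these included the mitophagy receptor BNIP3 (-0.72 ± 0.10), the main glucose transporter SLC2A1 (-0.64 ± 0.11), HIF1A itself, the oxygen-regulated transcription factor (-0.61 ± 0.11), VEGFA, the angiogenic growth factor (-0.59 ± 0.13), and hexokinase HK2 (-0.51 ± 0.12). HK2 was lower in 501mel too (-0.82, adjusted p = 4.96e-05), while SLC2A1 and HIF1A were higher there (0.47 and 0.49). The difference between lines passed as lower in 13 members and higher in none. Oxidative phosphorylation genes had none of 31 past the threshold in limma, 1 at an unadjusted p under 0.05 and none with limma voom. Cytosolic ribosomal protein genes had 1 of 36 higher, RPS3 (0.53, adjusted p = 0.00306), and a median of 0.11, with a positive change in 33. The count was 6 higher when only the compared libraries were fitted, 5 with limma voom and 3 with quantile normalization.

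The unfolded protein response has several branches, which restore or spare protein folding in the ER. Targets of PERK and ATF4, the amino acid response, were higher in 11 of 38 and lower in 3, with a median of 0.21. ATF4 mRNA read 8.02, 8.26 and 8.18 with siCTR and 7.54, 7.44 and 7.76 with DMSO, a rise of 0.57 ± 0.14 (adjusted p = 0.00503). SLC7A11, the cystine importer, read 5.91, 6.04 and 6.11 with siCTR and 4.95, 4.90 and 4.69 with DMSO (1.18 ± 0.15, adjusted p = 7.77e-06). JDP2 (1.67 ± 0.25), the asparagine synthetase ASNS (1.01 ± 0.16) and the serine synthesis enzymes PHGDH (0.60) and PSAT1 (0.45) rose with them. The 3 lower members were ATF5 (-0.93 ± 0.19), the mTORC1 inhibitor DDIT4 (-0.78 ± 0.16) and the phosphatase subunit PPP1R15A (-0.53). In 501mel 2 were higher and 12 lower, and the difference between lines passed as higher in 12 and lower in 3.

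Chaperones and degradation factors of the IRE1-XBP1 and ATF6 branches were lower in 12 of 24 and higher in 1, with a median of -0.29. DNAJB9, an ER co-chaperone that holds IRE1 inactive, read 3.47, 3.66 and 3.97 with siCTR and 5.22, 5.18 and 4.97 with DMSO (-1.42 ± 0.18, adjusted p = 6.18e-06). DNAJB11 (-0.80 ± 0.08), CRELD2 (-0.65 ± 0.09) and calreticulin, CALR (-0.41 ± 0.08), fell. The main ER chaperone HSPA5 was lower by less (-0.29, adjusted p = 0.0294) and lost its call in 7 alternatives, and the higher member, HERPUD1 (0.27, adjusted p = 0.0271), in 5. The difference between lines passed as lower in 11 members of these branches and higher in 3. In the cytosol 6 of 19 heat shock genes were lower and none higher (median -0.13), among them HSPA8, the constitutive HSP70 (-0.84 ± 0.13), HSPH1 (-0.67 ± 0.08) and DNAJA1 (-0.60 ± 0.10). The higher count was 2 with quantile normalization, with limma voom and when only the compared libraries were fitted.

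MITF (chromosome 3, 69739435 to 69968337) read 9.43, 9.36 and 9.34 with siCTR and 9.02, 9.12 and 9.16 with DMSO, a rise of 0.28 ± 0.08 (adjusted p = 0.0184). The groups did not overlap, but the call was lost without siCTR replicate 1 (adjusted p = 0.0788) or without DMSO replicate 1 (adjusted p = 0.0951). Of 30 pigment cell genes 9 were higher and 7 lower, with a median of 0.09, so the list was split. The melanosome matrix gene PMEL read 11.28, 11.35 and 11.35 with siCTR and 10.84, 10.78 and 10.94 with DMSO (0.47 ± 0.08, adjusted p = 0.000189). TYRP1, a melanin synthesis enzyme (0.41 ± 0.07), the receptor gene MET (0.64 ± 0.08) and PPARGC1A, a coactivator of mitochondrial genes under MITF (1.01 ± 0.16), also rose. The Wnt transcription factor LEF1 (-0.90 ± 0.14) and the growth factor receptor KIT (-0.80 ± 0.15) fell. Tyrosinase, TYR (-0.07, adjusted p = 0.697), MLANA (0.01, adjusted p = 0.958), SOX10 (0.20, adjusted p = 0.156) and DCT (0.18, adjusted p = 0.289) did not pass. In 501mel 1 member was higher and 17 lower, and MITF was lower there (-0.43, adjusted p = 0.000669). The difference between lines passed as higher in 15 members, MITF among them, and lower in 4.

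The dedifferentiated and invasive genes had 2 higher, SNAI2 and JUN, and 3 lower of 24, with a median of -0.50. The lower count was 7 with limma voom and 6 when only the compared libraries were fitted. Fibronectin, FN1, read 9.67, 9.48 and 9.64 with siCTR and 10.75, 10.68 and 10.65 with DMSO (-1.10 ± 0.10, adjusted p = 3.02e-08), and SNAI2, the neural crest factor SLUG, rose (0.55 ± 0.14). FOSL1 (-1.32 ± 0.34) lost its call without siCTR replicate 1. Matrix and adhesion genes had 8 lower and 1 higher of 32 (median -0.21), with integrin alpha 6, ITGA6 (-0.96 ± 0.12), and COL9A3 (-0.90 ± 0.12) lower and NCAM1 (1.00 ± 0.14) higher. The higher count was 4 with limma voom and 3 when only the compared libraries were fitted. Output of TGF-beta and BMP signalling was lower in 5 of 14 and higher in 1 (median -0.57), among them the feedback gene PMEPA1 (-1.10 ± 0.15) and the inhibitors of differentiation ID3 (-0.54 ± 0.08) and ID1 (-0.77 ± 0.15). The higher one, SMAD9 (1.32 ± 0.40), lost its call without siCTR replicate 2 or 3 or DMSO replicate 2. Of 18 YAP-TEAD genes 3 were lower and 1 higher (median -0.21): WWTR1, which encodes the coactivator TAZ (-1.13 ± 0.09), CYR61 (-0.99 ± 0.18) and CTGF (-1.12 ± 0.23) fell, and ARHGEF17 (0.54) rose. The call of CTGF was lost when only the 6 compared libraries were fitted (adjusted p = 0.0569).

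Of 31 lysosome and endocytosis genes 8 were lower and 1 higher (median -0.15). The higher one was LAMP2, a main protein of the lysosomal membrane and a receptor of chaperone-mediated autophagy, at 9.25, 9.24 and 9.21 with siCTR and 8.23, 8.37 and 8.16 with DMSO (0.98 ± 0.08, adjusted p = 4.44e-09), and it went the other way in 501mel (-0.71, adjusted p = 1.1e-06). The early endosome GTPase RAB5A (-0.42 ± 0.08) and GPNMB (-0.36 ± 0.06) fell. Of 24 autophagy genes 8 were lower and none higher (median -0.11), including BECN1 (-0.48 ± 0.07), ATG16L1 (-0.65 ± 0.14) and the cargo receptor SQSTM1 (-0.42 ± 0.09). Metallothioneins and metal response genes were lower in 4 of 6 (median -0.56), with MT2A, which binds zinc and copper (-0.50 ± 0.10), its regulator MTF1 (-0.61 ± 0.14) and the zinc exporter SLC30A1 (-1.83 ± 0.39, on 18 reads with siCTR and 56 with DMSO). Of 24 NRF2 genes 2 were higher, SLC7A11 among them, and 4 lower, including the NRF2 repressor KEAP1 (-0.41 ± 0.09). Of 19 p53 targets and death genes 1, BBC3, was higher and 5 were lower: the cell cycle inhibitor CDKN1A (-1.69 ± 0.40), BCL2L11, which encodes BIM (-1.05 ± 0.24), and TIGAR (-0.57 ± 0.11) were among these.

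Of 16 sensors and adaptors of cytosolic and endosomal RNA, 0 passed in limma in either direction and 0 reached an unadjusted p under 0.05. With limma voom 1 was lower. No Toll-like receptor was among the 16, and DHX58 (SE 0.92) and OAS2 (SE 0.79) were measured with a wide error. TBK1, the kinase that activates IRF3, had the smallest p (-0.37 ± 0.23, adjusted p = 0.305). Of 30 interferon response genes 1 was lower and none higher, with a median of -0.09 and 3 at an unadjusted p under 0.05. That gene, DTX3L, fell by 0.37 (adjusted p = 0.0384) and lost its call in 9 alternatives. Some members had a large SE, such as MX2 (0.98) and IFI44L (1.02), so only large changes could pass there. In 501mel 5 interferon genes were higher, and the difference between lines passed as lower in 7 and higher in none. Among NF-kB and inflammatory genes 2 of 22 were higher, NFKBIZ (0.76) and REL (0.73), and 5 lower (median -0.16). PTGS2, the inducible cyclooxygenase, had 0 reads in the 3 siCTR libraries and 38 in the 3 DMSO libraries. Taking 3 reads over the siCTR group as the floor, it was 14.3-fold lower. CCL2, a monocyte chemokine, had 0 reads with siCTR and 8 with DMSO, 3.005-fold lower with the same floor. Neither fold allows for the counting error of the DMSO reads, which is large at 8 reads. The call of CCL2 was lost with a pseudocount of 1 CPM. CXCL8, interleukin 8, fell by 1.88 ± 0.33 on the log2 scale. Of the MHC class I list 1 of 16, CALR, was lower, and of the replication-dependent histones 1 of 11, HIST1H2BD, which lost its call in 6 alternatives.

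SCD (chromosome 10, 100347124 to 100364834), the gene of the study, read 10.16, 10.16 and 10.05 with siCTR and 9.77, 9.73 and 9.72 with DMSO. The groups did not overlap, yet the change of 0.39 ± 0.16 did not pass (adjusted p = 0.103) with the spread shared over all groups of the table, among which the IGR37 libraries of the second SCD siRNA had an SD of 0.608 for this gene. It passed when only the 6 compared libraries were fitted (adjusted p = 0.00507) and with limma voom (adjusted p = 0.00695). Fatty acid genes had 2 higher and 2 lower of 23 (median 0.10), HACD3, a very long chain dehydratase (0.46 ± 0.08), being higher and the elongase ELOVL5 (-0.31 ± 0.08) lower. FASN, fatty acid synthase, rose by 0.37 ± 0.10, a call lost without siCTR replicate 3 (adjusted p = 0.0768) or DMSO replicate 3 (adjusted p = 0.0889). Cholesterol genes had 3 higher and 1 lower of 26 (median 0.17; 6 higher when only the compared libraries were fitted), with INSIG1, the sterol-sensing brake on SREBP (0.42 ± 0.10), among the higher ones. DHCR7 (0.78 ± 0.25), on 48 reads with siCTR and 25 with DMSO, lost its call in 10 alternatives. Of 9 LXR targets the lipid transfer gene PLTP (0.91 ± 0.22) and APOE (0.59 ± 0.17) were higher and none lower, the call of APOE being lost without siCTR or DMSO replicate 2. The median of that list, 0.03, fell to -0.03 with quantile normalization. Among 23 lipid droplet and fatty acid oxidation genes PPARA, the nuclear receptor of fatty acid burning, rose (0.80 ± 0.15), and its target ANGPTL4 fell to 9 reads with siCTR, against 91 with DMSO.

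Of the 8 promoter motifs searched, each was held by similar shares of higher and lower genes or by few of either. Windows of 250 bases before to 50 after the gene start, from RefSeq, were available for 27305 genes, 9957 of them tested, 645 of them higher and 941 lower. The MITF motif (TCACGTG or TCATGTG, both strands here and below) was held by 8.37% of the higher and 9.35% of the lower genes, against 7.6% of all tested genes and 6.68% of all promoters. The antioxidant motif (TGACNNNGC) was in 13.5% of higher and 17% of lower genes, against 15.3% of tested genes and 13.6% of all promoters. The heat shock motif was in 0.155% of higher and 0.85% of lower genes, against 0.331% of tested genes and 0.487% of all promoters. The cyclic AMP motif (TGACGTCA) was in 3.57% of higher and 4.46% of lower genes, against 3.34% of tested genes and 1.98% of all promoters. For the amino acid response motif (TGATGNAA) the shares were 1.86% of higher, 1.81% of lower and 1.7% of tested genes, and 3.67% of all promoters. For the SREBP motif (TCACNCCAC) they were 1.09% of higher, 0.956% of lower and 1.05% of tested genes, and 1.15% of all promoters. For the ISRE motif of interferon-stimulated genes they were 2.48% of higher, 2.55% of lower and 2.77% of tested genes, and 3.65% of all promoters. For the NF-kB motif they were 76.3% of higher, 74.7% of lower and 73.3% of tested genes, and 58% of all promoters. These letters in a window are a description and say nothing about binding.

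The contrast reaches into the rest of the study through its controls. Against the libraries labelled DMSO, the SCD inhibitor in IGR37 had 5890 genes past the threshold, and against those labelled siCTR 5555, and the second SCD siRNA had 6136 against those labelled siCTR. These comparisons share control libraries, so their calls are given side by side only. In the siCTR_1 libraries of the second table, the genes that fell read between the siCTR and DMSO libraries of the first for GDF15 (8.57 log2 CPM), CDK6 (5.91), CCND1 (7.08) and DUSP6 (5.73). Of the genes that rose, CFDP1 (4.32), SLC7A11 (5.52) and LAMP2 (8.62) also read between them, while FAM69C (7.12) read above both. These values were not tested against the first table.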

How the data were processed

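3′ transcript tags were measured in 36 libraries, in 2 tables. Per the labels' protocols, RNA was purified with RNeasy and made into QuantSeq Forward libraries, and the submitters' processing notes name STAR, the hg38 build and edgeR, with no versions. The deposited values were log2 CPM, library-scaled with a prior count. They gave whole reads within 0.000258 and 0.000238 reads. The first table held 24 libraries and 13364 genes, the second 12 libraries and 13066 genes, with 12896 in common, and each was normalized on its own. Spike-ins (66 and 60) and 1 Mitf-FLAG sequence were left out. Symbols were matched to GENCODE 29 (12605 found) for coordinates and UTRs, and to RefSeq for promoters and microRNAs.

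Gene tests used limma 3.58.1 in R 4.3.3 (lmFit, contrasts.fit, eBayes with trend, two-sided) on the 24 libraries of the first table, 1 coefficient per group, with Benjamini-Hochberg adjustment over 13364 genes. The filter, a log2 value above 0 in 3 libraries, removed no gene. Fold changes on this scale understate changes of low genes. Replicate numbers did not pair: same-numbered IGR37 libraries had residual correlations of 0.00469, -0.0384 and 0.00632, so they were not used as a block.

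Members and lists were chosen with earlier results of these data known. Named genes were SCD, MITF and ATF4, the 12 largest rises and 12 largest falls above the median level whose groups did not overlap, up to 3 members per list by adjusted p, and the 6 largest differences between lines in each direction. A gene that this rule picks is not reported here. Another 31 genes, and the few list members outside both sets, were chosen after their values were seen. The 33 lists, the words and the motifs were described by counts and shares, with no set test. Alternatives were other fits, filters, scalings and a pseudocount, fits without each library, and limma voom on the recovered reads, scaled by library totals alone. Intervals and floors cover counting error only.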

Additional observations from a re-analysis of the deposited data

Results flagged for a closer look

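The change with siCTR differed between IGR37 and 501mel, by the limma test of the difference itself, in 1204 genes with a positive and 1308 with a negative difference (IGR37 minus 501mel). Among named genes it was positive for SMIM15 (3.365), NAA50 (2.646), LRP12 (2.553), UBE2G2 (2.406), HEATR1 (2.391), TECPR2 (2.386), ATF4 (1.073) and MITF (0.7086), all in log2 units. It was negative for SLC2A3 (-3.908), HMGA2 (-2.462), LMBR1L (-2.445), CXADR (-2.334), SEPW1 (-2.213) and GDF15 (-2.157). In all 14 the IGR37 and 501mel changes had opposite signs and each passed on its own. Apart from ATF4 and MITF, these genes were named for the largest differences between the lines. Their opposite signs therefore follow in part from that choice. Whether the labels of the siCTR and DMSO libraries of 1 line are exchanged was not tested. Groups of 3 libraries were not examined for single distant samples.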

How the results depend on the processing

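In IGR37 the higher genes numbered 798 to 1158 and the lower genes 1067 to 1390 under the alternatives that kept all libraries, and 567 to 665 higher and 811 to 956 lower when 1 library was left out, the lowest higher count being without siCTR replicate 3. In 501mel, fitting only the compared libraries gave 403 higher and 548 lower genes, limma voom gave 1053 higher, and leaving out 1 library gave 560 to 736 lower. With the replicate block, a fit that the data do not call for, IGR37 had 851 higher and 1175 lower genes, 501mel 604 and 853, the difference 1159 and 1277, and 453 genes opposite signs. Genes with opposite signs in both lines numbered 310 to 516 over the alternatives, 87.07 to 90.98% of those called in both. Of 134 named genes, 112 kept their side of the threshold in IGR37 under all alternatives run, 20 lost it and 2, SCD and SOX10, gained it when only the compared libraries were fitted, and none changed sign. The cause was not tested. A stricter filter kept 11388 genes. Depth limits low genes: under about 3 reads a library, levels were not detectable.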
